A study of Homo sapiens with 3 samples.

Results

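The transcripts described here are the named long non-coding RNAs (lncRNAs) that had at least 1 read in the RNA precipitated by normal mouse IgG and 0 reads in the RNA precipitated through Flag-tagged FAK. Of the 334 lncRNA transcripts measured, 218 carried a database name and 114 of these had reads in IgG. The read rule took 83 of them, and 10 were left out because they lay at 8 listed loci, at a repeated stretch of chromosome 17 or at the 7SK gene, which leaves 73 transcripts from 71 loci. They carried 71 distinct names and lay on 21 chromosomes. The transcripts were chosen by their IgG and Flag-FAK reads, so the level of these transcripts in both precipitates, and the ratio between them, is a description and not a finding.

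MDA-MB-231 is a human cell line established from a triple negative breast cancer, p53-mutant per the labels. The cells were transfected to produce Flag-tagged FAK, and all 3 libraries came from such cells, so none shows cells without the tagged protein. RNA was retrieved with an anti-Flag antibody (Flag-FAK) or with normal mouse IgG (IgG), and Input was 10% of the RNA before precipitation. Each condition has 1 library, so no value has a replicate, an SD or a p-value, and a difference compares these libraries and not the conditions. Levels are FPKM, reads scaled to the length of the transcript and the size of the library, with the read count beside them. Each interval given is the exact 95% Clopper-Pearson interval for the ratio of 2 read counts, converted to FPKM, and cover no error but that of counting, because PCR copies of a molecule are counted as further reads. In bulk libraries, fewer cells holding a transcript and less of it per cell cannot be told apart. The protein-coding genes that mark this cell line were not analysed here.

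RNA immunoprecipitation retrieves a protein with an antibody and sequences the RNA that comes with it. The precipitate with a nonspecific IgG holds RNA that sticks to beads, antibody or tube, and serves as the background against which RNA bound to the protein is read. Abundant RNAs are commonly found in such a background. FAK is a cytoplasmic tyrosine kinase of focal adhesions, the contacts through which cells hold on to the matrix.

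Outside the ribosomal DNA and 7SK transcripts, Input held 13782 lncRNA reads, IgG 3669 and Flag-FAK 1351. The 73 transcripts had 1121 of these reads in Input (8.13%) and 624 in IgG (17.0%), with none in Flag-FAK by the rule. The files' list has a lower edge: 329 of the 334 transcripts had a highest level over the 3 libraries of at least 1.51 FPKM, and the other 5 were at 0 in all of them. A transcript of this set that was low in IgG therefore had to be higher in Input, and one at 0 in Input had to reach 1.51 FPKM in IgG. This shapes every IgG to Input ratio given here.

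The IgG reads of the set were concentrated in a few transcripts. The 15 with the most reads held 336 of the 624 (53.8%). Reads in IgG ran from 1 to 44 with a median of 5. There were 7 transcripts with at least 20 reads, 16 with at least 10, 32 with 5 to 9 and 25 with fewer than 5. The level ran from 0.0473 to 5.53 FPKM in IgG (median 1.97) and from 0 to 8.88 FPKM in Input (median 2.78).

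The sequence around the gene's start is shown for the 4 most read transcripts whose 5′ end lay inside a RefSeq start window. Each line is the 300-base window of RefSeq's GRCh38.p14 annotation from 250 bases before to 50 after the gene's start, 5′ to 3′ on the gene's strand. Capitals mark the bases inside the deposited transcript. The windows are chr16:54928837-54929136 on the minus strand for CRNDE, chr6:85678684-85678983 on the minus strand for SNHG5, chr5:8457437-8457736 on the plus strand for MIR4458HG and chr6:165987990-165988289 on the minus strand for LINC00473.
CRNDE: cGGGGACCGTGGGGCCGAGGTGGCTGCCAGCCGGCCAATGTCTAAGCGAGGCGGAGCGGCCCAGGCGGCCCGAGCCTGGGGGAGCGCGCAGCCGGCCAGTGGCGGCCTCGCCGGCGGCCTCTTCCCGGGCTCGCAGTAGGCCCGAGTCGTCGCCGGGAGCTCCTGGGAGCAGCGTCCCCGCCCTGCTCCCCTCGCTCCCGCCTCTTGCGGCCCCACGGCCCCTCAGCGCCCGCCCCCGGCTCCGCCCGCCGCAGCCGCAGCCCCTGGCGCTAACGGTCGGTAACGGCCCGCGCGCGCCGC
SNHG5: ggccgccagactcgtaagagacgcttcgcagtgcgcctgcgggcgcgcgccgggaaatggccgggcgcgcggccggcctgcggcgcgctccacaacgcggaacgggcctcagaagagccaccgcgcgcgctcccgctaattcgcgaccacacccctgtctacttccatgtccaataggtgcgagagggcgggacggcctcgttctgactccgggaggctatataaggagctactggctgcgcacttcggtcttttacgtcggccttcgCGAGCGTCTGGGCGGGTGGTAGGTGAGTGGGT
MIR4458HG: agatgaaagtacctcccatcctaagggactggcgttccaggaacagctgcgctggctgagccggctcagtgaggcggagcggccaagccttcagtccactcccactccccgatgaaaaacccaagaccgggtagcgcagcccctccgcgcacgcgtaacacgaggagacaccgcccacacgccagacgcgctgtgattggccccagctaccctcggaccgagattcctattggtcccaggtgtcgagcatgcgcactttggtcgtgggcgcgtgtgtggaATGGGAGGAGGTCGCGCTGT
LINC00473: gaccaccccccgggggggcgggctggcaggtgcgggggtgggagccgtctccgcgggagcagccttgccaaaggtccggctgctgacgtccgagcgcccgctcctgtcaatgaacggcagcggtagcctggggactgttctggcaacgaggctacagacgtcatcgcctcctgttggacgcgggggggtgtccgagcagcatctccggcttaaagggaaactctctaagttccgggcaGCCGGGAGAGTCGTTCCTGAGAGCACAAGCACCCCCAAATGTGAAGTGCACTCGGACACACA

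The deposited SNHG5 and MIR4458HG transcripts began 18 and 30 bases after the RefSeq start, and that of LINC00473 began 12 bases before it. The CRNDE transcript began 249 bases before the RefSeq start, so almost the whole window is in capitals. The GC content was 80% for CRNDE, 67.7% for SNHG5, 63.3% for MIR4458HG and 65.7% for LINC00473. RefSeq windows held the 5′ end of 12 of the 73 transcripts, with a median GC content of 64.5%, against 58.7% over all 35116 RefSeq windows. Only these 12 were considered, so a start close to RefSeq's follows from that choice and is not a result for the set.

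**Figure D1:**
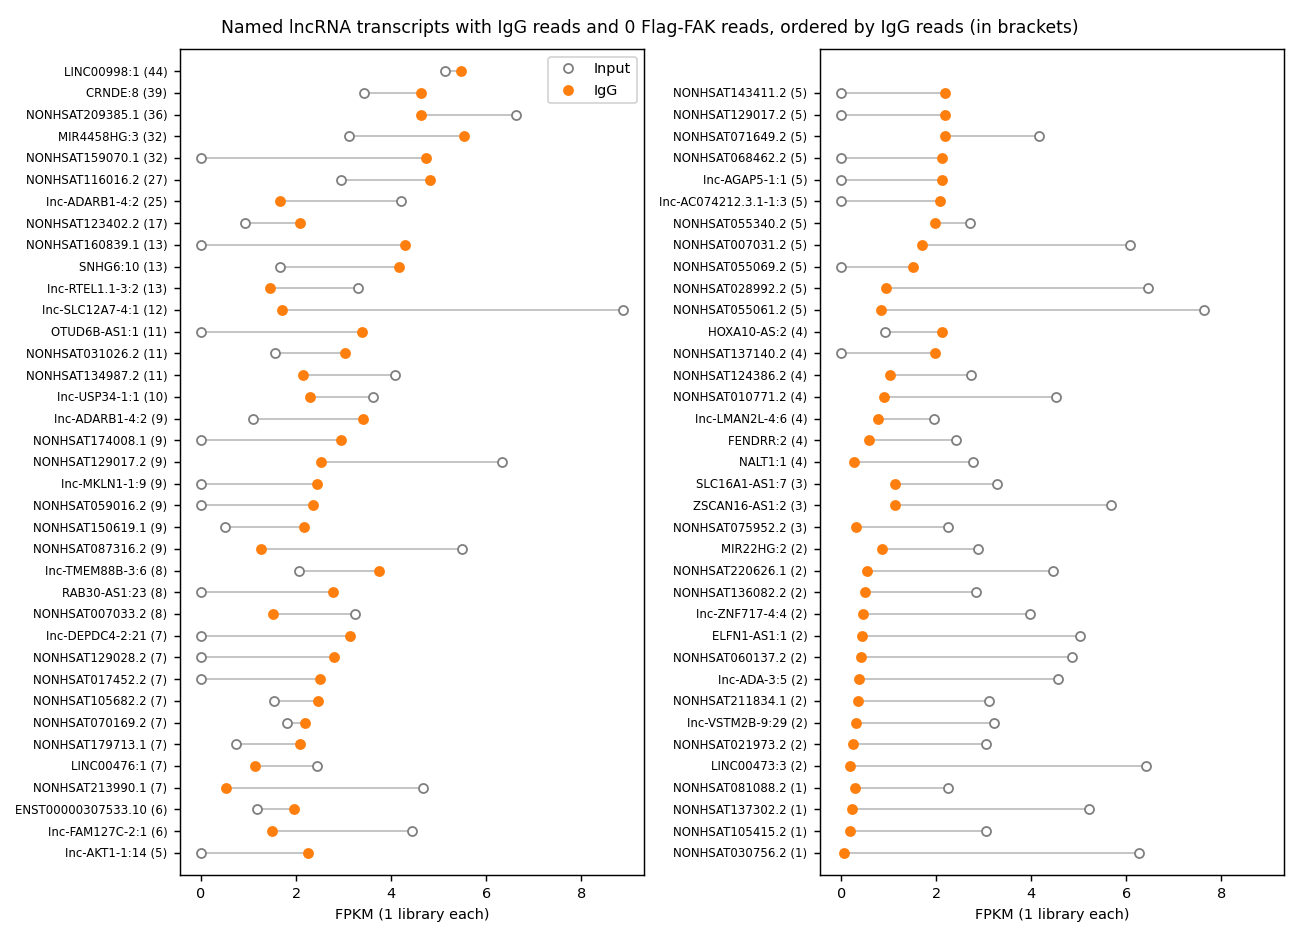
Level in Input (open circles) and IgG (filled circles) of the 73 transcripts, in FPKM with 1 library each, in the order of their IgG reads, which stand in brackets. The order runs down the left panel and then down the right. The top rows of the left panel hold the transcripts with the most IgG reads, some of them at 0 in Input. In the lowest rows of the right panel the Input level is far above the IgG level.

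The IgG to Input ratios of single transcripts are given in FPKM, and their side of 1 depends on the library totals. Of the 15 most read transcripts, the interval of the ratio was above 1 for 3 and below 1 for 3 in FPKM. With the FPKM of each library scaled to sum to 1000000 (TPM) it was above 1 for 14 and below for none. This sum covers only the 334 listed transcripts, and most of their reads were of ribosomal DNA and 7SK. Outside these lay 13782 of 2056854 reads in Input, 3669 of 109658 in IgG and 1351 of 48763 in Flag-FAK. The TPM scale thus depends mainly on those RNAs. With totals that leave out ribosomal DNA and 7SK it was above 1 for 11 and below for none.

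LINC00998:1, with 44 reads in IgG, was the most read transcript of the set. It lay at chr7:113116790-113118163 on the minus strand, over the gene that RefSeq now lists as protein-coding SMIM30, which encodes a small membrane protein. It had 45 reads (5.14 FPKM) in Input and 44 reads (5.47 FPKM) in IgG, a ratio of 1.06 (0.687 to 1.65). In FPKM counting error does not separate the libraries, while the TPM interval, 4.21 to 10.1, is above 1.

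CRNDE:8 came next, at chr16:54918931-54929135 on the minus strand. CRNDE is an lncRNA first described for its high level in colorectal tumors. It had 31 reads (3.43 FPKM) in Input and 39 reads (4.62 FPKM) in IgG, and the interval of the ratio in FPKM, 0.818 to 2.23, holds 1.

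NONHSAT209385.1 lay over SNHG5, the host gene of the small nucleolar RNAs SNORD50A and SNORD50B, at chr6:85677139-85678715 on the minus strand. It had 55 reads (6.63 FPKM) in Input and 36 reads (4.63 FPKM) in IgG, a ratio of 0.698 (0.445 to 1.08). Small nucleolar RNAs guide the modification of ribosomal RNA and are cut from the introns of such host genes.

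MIR4458HG:3 had the highest level of the set in IgG, 5.53 FPKM from 32 reads, against 3.12 FPKM from 20 reads in Input. It lay at chr5:8457717-8460525 on the plus strand, and the ratio was 1.77 (0.982 to 3.27). NONHSAT116016.2, at chr6:165910829-165988051 on the minus strand over LINC00473, an lncRNA induced by cAMP signaling, had 18 reads (2.94 FPKM) in Input and 27 reads (4.82 FPKM) in IgG. Its ratio was 1.64 (0.872 to 3.17), so for these 2 transcripts also the interval reaches below 1 in FPKM. On the TPM scale the intervals begin at 6.03 and 5.35.

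NONHSAT159070.1 was the most read transcript with 0 reads in Input. It had 32 reads (4.74 FPKM) in IgG and lay at chr11:43828389-43856604 on the plus strand, at the position of HSD17B12, a protein-coding gene for an enzyme of fatty acid elongation. The interval of its IgG to Input ratio has no upper end and begins at 8.81. NONHSAT160839.1 at MIR100HG (13 IgG reads, 4.29 FPKM) and OTUD6B-AS1:1 (11 IgG reads, 3.38 FPKM) were also at 0 in Input, and their intervals begin at 3.28 and 2.70. Of the 15 most read transcripts these are the 3 without Input reads.

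lnc-ADARB1-4:2 is a name shared by 2 of the transcripts, both over ADARB1, the gene of an RNA-editing adenosine deaminase. The one at chr21:45145469-45147241 had the most Input reads of the set, 69 (4.20 FPKM), and 25 reads (1.65 FPKM) in IgG, a ratio of 0.393 (0.238 to 0.629). The one at chr21:45116977-45120854 had 3 reads (1.09 FPKM) in Input and 9 reads (3.42 FPKM) in IgG, a ratio of 3.13 (0.806 to 18.5). The second rests on few reads and its interval holds 1, and on the TPM scale both intervals are above 1 (1.46 to 3.86 and 4.95 to 114).

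The other transcripts of the 15 most read had 6 to 65 reads in Input and 11 to 17 in IgG. NONHSAT123402.2 at MKLN1-AS had 8 reads in Input and 17 in IgG, SNHG6:10 had 6 and 13, and NONHSAT031026.2 at LOC101928274 had 6 and 11. NONHSAT134987.2 at ZDHHC12-DT had 22 reads in Input and 11 in IgG, with a ratio of 0.524 (0.229 to 1.13). For these 4 the interval of the ratio holds 1 in FPKM, and on the TPM scale all 4 begin above 1, the lowest at 1.41. lnc-RTEL1.1-3:2 at MHENCR had 32 reads in Input and 13 in IgG, and its ratio of 0.443 (0.213 to 0.867) was below 1 beyond counting error in FPKM, while the TPM interval, 1.31 to 5.32, is above 1. lnc-SLC12A7-4:1 at LINC02982 had the highest Input level of the set, 8.88 FPKM from 65 reads, against 1.71 FPKM from 12 reads in IgG, a ratio of 0.193 (0.0948 to 0.36).

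Of the 5 transcripts highest in Input, 1 was also among the 5 with the most IgG reads, that at SNHG5. After lnc-SLC12A7-4:1 came NONHSAT055061.2 at HEATR6-DT, with 7.64 FPKM in Input and 0.834 FPKM in IgG, then NONHSAT209385.1 at SNHG5. NONHSAT028992.2 at GIHCG had 6.45 FPKM in Input (31 reads) and 0.933 FPKM in IgG (5 reads). LINC00473:3 had 6.42 FPKM in Input (40 reads) and 0.184 FPKM in IgG (2 reads). Over the 73 transcripts the rank correlation of Input and IgG levels was -0.44, and over the 55 with Input reads it was -0.22. The points share their libraries and the lower edge of the list, which keeps out transcripts low in both libraries.

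Relative to Input, 24 of the 73 transcripts were more than 2-fold higher in IgG on the scale of log2(FPKM + 0.1), where 13.3% of all 324 transcripts with reads in either library were. The 24 include the 18 at 0 in Input, which the lower edge of the list forced above 2-fold, so most of this count was fixed in advance. Another 35 were below 0.5-fold, against 78.4% of all transcripts, and 14 lay between. The counting interval of the ratio was above 1 for 10 transcripts (6.48% of all) and below 1 for 27 (66.4% of all) in FPKM. On the TPM scale it was above 1 for 41 (23.8% of all) and below 1 for none (10.2% of all). With totals that leave out ribosomal DNA and 7SK it was above 1 for 34 (19.1% of all) and below 1 for 5 (21% of all). The shares over all transcripts include those with no IgG reads, which could only be low, whereas the rule asked for an IgG read. The median log2 ratio was -0.90 for the 73 transcripts, -1.68 for the other 77 transcripts with IgG reads, and -1.78 for the 24 named ones with reads in both precipitates. These groups held 18, 15 and 0 transcripts at 0 in Input, whose ratios are high through the pseudocount. Among the transcripts of the set with Input reads, a choice made after seeing the data, the median was -1.45. The TPM scale multiplied each IgG to Input ratio by 6.14 before the pseudocount, and the median log2 ratio of the set was then 1.68. With library totals that leave out ribosomal DNA and 7SK the factor was 3.37 and the median 0.82. Whether the set as a whole was higher or lower in IgG than in Input thus depended on the total used.

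The 18 transcripts at 0 in Input had 4 to 32 reads in IgG (median 7) and 1.51 to 4.74 FPKM. In FPKM all 10 intervals above 1 belonged to them, while on the TPM scale the intervals of all 18, and of 23 of the 55 with Input reads, were above 1. The 4 highest ratios among transcripts with at least 5 reads in IgG or Input were those of NONHSAT159070.1, NONHSAT160839.1, OTUD6B-AS1:1 and lnc-DEPDC4-2:21. The last, at the pseudogene GOLGA2P5, had 7 reads (3.14 FPKM) in IgG, and its interval begins at 1.55.

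At the other end, the 15 transcripts with 1 or 2 IgG reads had 2.24 to 6.42 FPKM in Input. The lowest ratio in FPKM was that of NONHSAT030756.2 at MAPKAPK5-AS1, with 26 reads (6.26 FPKM) in Input and 1 read (0.0473 FPKM) in IgG. It was 0.00755, with an interval of 0.00101 to 0.252. Here as elsewhere the ratio is of FPKM and the interval rests on read counts. This IgG level corresponds to 0.182 reads, well below the deposited 1, so the size of the ratio is uncertain. LINC00473:3 followed with 0.0286 (0.0063 to 0.208), NONHSAT137302.2 at LINC01278 with 0.0427 (0.00114 to 0.288) and NONHSAT105415.2 at PRR7-AS1 with 0.0583 (0.00182 to 0.505). All 4 intervals lie below 1 in FPKM, and for each the upper end on the TPM scale is above 1.

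The 3 transcripts with the highest level among those with 1 IgG read, just inside the rule, were NONHSAT081088.2 at EIF3FP1 (8 Input reads, 0.285 FPKM in IgG), NONHSAT137302.2 (23 Input reads, 0.222 FPKM in IgG) and NONHSAT105415.2 (14 Input reads, 0.177 FPKM in IgG). Just outside it stood 1 transcript with a single Flag-FAK read, NONHSAT021823.2 at SNHG1, with 25 Input reads, 2 IgG reads and 1 Flag-FAK read (3.58, 0.270 and 0.0531 FPKM). It had 1 IgG read more than the 3 just inside.

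How much a zero in Flag-FAK says depends on the reads in IgG. With 1 IgG read, 0 Flag-FAK reads still allow a Flag-FAK to IgG ratio of up to 38.0, with 2 reads up to 5.19 and with 5 reads up to 1.06. From 6 IgG reads on the upper limit is below 1 (0.827). It is 0.435 at 10 reads and 0.0852 at the 44 reads of LINC00998:1. A read was worth nearly the same FPKM in both libraries, with a median Flag-FAK to IgG factor of 0.974 (range 0.809 to 1.05) over 26 transcripts with at least 5 reads in each.

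By this limit the zero was below IgG beyond counting error for 36 of the 73 transcripts, and 40.1% of all 172 transcripts with reads in a precipitate had such an interval. The rule chose these transcripts for their zeros, so nothing is read from the set's count against that share. On the TPM scale, where each Flag-FAK to IgG ratio is 2.29 times higher, 10 IgG reads were needed and 16 transcripts were left (18.6% of all). With totals that leave out ribosomal DNA and 7SK, where it is 2.71 times higher, 12 reads were needed and 12 transcripts were left (14.5% of all). These 12 run from LINC00998:1 to lnc-SLC12A7-4:1 in the order of IgG reads. They include CRNDE:8, the transcripts at SNHG5, MIR4458HG, HSD17B12, LINC00473, ADARB1, MKLN1-AS, MIR100HG and MHENCR, and SNHG6:10. For the other 37 transcripts a zero in Flag-FAK was within counting error of the IgG level in FPKM.

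Input offers a second level against which to set the zeros. In FPKM, Flag-FAK was below Input beyond counting error for 48 of the 55 transcripts of the set with Input reads. This held for 79.7% of all 300 transcripts with reads in either library. The other 18 of the set had reads in neither and could not be called. The rule fixed the Flag-FAK zeros, so nothing is read from these counts against the shares. On the TPM scale this was 3 transcripts (6.33% of all), and with totals that leave out ribosomal DNA and 7SK it was 8 (11% of all). Most of the 48 were thus below Input on the deposited scale and not on the other 2.

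A transcript without Flag-FAK reads can belong to a locus that has some. Of the 73 transcripts, 63 were the only transcript listed at their locus. Another transcript of the locus had Flag-FAK reads for 5 of the others. Summed over the LINC00473 locus, which holds 2 of these 5, Input had 65 reads, IgG 57 and Flag-FAK 2, and the Flag-FAK to IgG ratio was 0.0198 (0.00404 to 0.129). The SNHG6 locus had 88, 114 and 8 reads, with a ratio of 0.0603 (0.0288 to 0.139). Each locus ratio is of summed FPKM, while its interval rests on summed reads and the median factor. In these 2 loci the summed Flag-FAK level was well below IgG. The sums hold the set's own IgG reads and its zeros, which the rule fixed, so they partly restate the choice. The other transcript of the SNHG6 locus alone had 101 IgG and 8 Flag-FAK reads. At LINC00473 the transcripts other than NONHSAT116016.2 had 30 and 2, and 2 of those IgG reads were of LINC00473:3, also in the set. No interval was computed without the set's transcripts.

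At the locus of NONHSAT129028.2 Input had 59 reads, IgG 29 and Flag-FAK 5, with a ratio of 0.106 (0.0508 to 0.439) in FPKM. This sum too holds a zero fixed by the rule, and the locus's other transcripts had 22 IgG and 5 Flag-FAK reads. The other 2 scales were not applied to the locus sums. At HOTAIRM1, an lncRNA of the HOXA gene cluster, NONHSAT211834.1 had 2 IgG reads, and its locus had 42, 9 and 6 reads. The locus ratio there was 0.706 (0.190 to 2.04), so the locus was not separated between the precipitates although the transcript had no Flag-FAK read. At HEATR6-DT both listed transcripts had 5 IgG reads, and their sum of 10 reads against 0 gave an upper limit of 0.435, where each alone had 1.06. Both zeros were fixed by the rule, so nothing is read from the lower limit of the sum.

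All 73 transcripts are called lncRNAs in the files, yet RefSeq lists other kinds of gene at some positions. An lncRNA gene lay on the same strand for 39 transcripts (350 IgG reads), and for 12 more (69 IgG reads) the strand of the lncRNA gene was not in the tables used. Where several genes overlapped a transcript, an lncRNA gene was counted first. With no lncRNA gene matched, a protein-coding gene lay on the same strand for 9 transcripts (112 IgG reads). With its strand not known here, the same held for NONHSAT159070.1 at HSD17B12. The 9 were those at SMIM30, ADARB1 (2 transcripts), DISP1, TET3, KANSL3, MRFAP1L2, RTL8A and KANTR. The LINC00473 transcripts of the set, counted under lncRNA genes, also overlap the protein-coding gene PDE10A on the same strand. Reads of such transcripts cannot be told from reads of the messenger RNA or its precursor at the same position. Another 9 transcripts (38 IgG reads) lay at pseudogenes, copies of genes whose reads can be shared with the parent gene, and 3 (23 IgG reads) at no listed gene.

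The 2 transcripts at the pseudogene SMG1P7 were both at 0 in Input, with 5 and 9 reads in IgG. Those at LINC01133 had 16 and 17 reads in Input and 5 and 8 in IgG, levels of 6.07 and 3.24 FPKM in Input against 1.69 and 1.50 FPKM in IgG. At HEATR6-DT, NONHSAT055069.2 had 0 reads in Input and NONHSAT055061.2 had 42, with 5 reads each in IgG. At LINC00473, NONHSAT116016.2 had 18 reads in Input and 27 in IgG, and LINC00473:3 had 40 and 2. The LINC00473 transcripts overlap on the same strand, and how reads were divided between them was not tested.

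Among host genes of small nucleolar RNAs, 21 transcripts were listed, of which 2 fall in the set, 6 had reads in both precipitates and 5 in Input only, while 8 were at loci left out. The 2 are those at SNHG5 and SNHG6, with 61 reads in Input and 49 in IgG. In both the upper limit of the Flag-FAK to IgG ratio was below 1 on all 3 scales. Over all transcripts the share was 40.1% in FPKM, 18.6% on the TPM scale and 14.5% with totals that leave out ribosomal DNA and 7SK. The rule fixed the zeros, so nothing is read from these 2. Transcripts over genes of small RNAs themselves numbered 38, and 3 of them fall in the set: those at SNHG5 and SNHG6, which carry small nucleolar RNA genes, and NONHSAT213990.1 at LINC-PINT. The LINC-PINT transcript, of a p53-induced lncRNA gene, had 60 reads (4.68 FPKM) in Input and 7 (0.517 FPKM) in IgG, a ratio of 0.111 (0.0426 to 0.242) in FPKM and an interval of 0.262 to 1.49 on the TPM scale.

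Antisense and divergent lncRNA genes, which are read from the strand opposite to a neighboring gene, gave 60 listed transcripts and 20 of the set. Another 4 had reads in both precipitates and 24 in Input only. The 20 had 258 reads in Input and 106 in IgG, a median of 3.05 FPKM in Input and 1.13 FPKM in IgG, and a median log2 IgG to Input ratio of -1.19. In 8 of them the upper limit of the Flag-FAK to IgG ratio was below 1 in FPKM (40.1% of all transcripts), in 3 on the TPM scale (18.6% of all) and in none with totals that leave out ribosomal DNA and 7SK (14.5% of all). The 5 with the most IgG reads lay at OTUD6B-AS1, ZDHHC12-DT, C2orf74-DT, MRPL20-AS1 and RAB30-DT, with 11, 11, 10, 8 and 8 reads. MRPL23-AS1, ZNF529-AS1 and ERCC6L2-AS1 had 7 reads each. The transcripts at MZF1-AS1 and HEATR6-DT had 5 reads each, those at RBM33-DT and ZNF496-DT 4, those at SLC16A1-AS1 and ZSCAN16-AS1 3, those at ELFN1-AS1, BSG-AS1 and PPP1R14B-AS1 2, and those at PRR7-AS1 and MAPKAPK5-AS1 1. For all transcripts of this list with 5 or fewer IgG reads the zero in Flag-FAK was within counting error. Antisense genes whose symbol ends without a number were matched apart, a split made after their values were seen. These were NONHSAT123402.2 at MKLN1-AS, HOXA10-AS:2 and lnc-AC074212.3.1-1:3 at DM1-AS, with 17, 4 and 5 IgG reads, and all 3 listed transcripts of that kind fall in the set. Whether reads were counted by strand is not given in the sources used here, so reads of an antisense gene and of its partner cannot be told apart.

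Intergenic lncRNA genes with LINC symbols gave 27 listed transcripts, of which 10 fall in the set, 3 had reads in both precipitates and 7 in Input only. The 10 had 282 reads in Input and 75 in IgG, with a median of 4.62 FPKM in Input and 1.01 FPKM in IgG, and a median log2 ratio of -2.63. In 5 of them the upper limit of the Flag-FAK to IgG ratio was below 1 in FPKM (40.1% of all transcripts) and in 2 on each of the other scales (18.6% and 14.5% of all). Beside those at LINC00473, LINC02982, LINC01133, LINC-PINT and LINC01278, the list holds lnc-MKLN1-1:9 at LINC00513 (0 reads in Input, 9 in IgG), lnc-ADA-3:5 at LINC01260 (20 and 2) and lnc-VSTM2B-9:29 at LINC02987 (23 and 2).

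Host genes of microRNAs gave 7 listed transcripts, 4 of them in the set, 1 with reads in both precipitates and 1 in Input only. They had 27 reads in Input and 56 in IgG, a median of 1.44 FPKM in Input and 3.33 FPKM in IgG, and a median log2 ratio of 2.71 that rests on 2 transcripts at 0 in Input. NONHSAT059016.2 at MIR924HG had 0 reads in Input and 9 (2.36 FPKM) in IgG. MIR22HG:2, at chr17:1712329-1714009, had 7 reads (2.88 FPKM) in Input and 2 (0.863 FPKM) in IgG. The upper limit of the Flag-FAK to IgG ratio was below 1 for the other 3 in FPKM (40.1% of all transcripts) and for 2 on each of the other scales (18.6% and 14.5% of all). For MIR22HG it was 5.19 in FPKM.

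The microRNAs next to these host transcripts are shown because they identify what each gene carries; the mature microRNAs were not measured here. They are RefSeq's mature sequences of GRCh38.p14, 5′ to 3′, with the seed (bases 2 to 8), through which a microRNA pairs with its targets, in capitals.
hsa-miR-4458: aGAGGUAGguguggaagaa
hsa-let-7a-5p: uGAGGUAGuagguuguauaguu
hsa-miR-100-5p: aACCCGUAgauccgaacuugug
hsa-miR-22-3p: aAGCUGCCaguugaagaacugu
hsa-miR-22-5p: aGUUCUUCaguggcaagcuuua

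hsa-miR-4458 lay 408 bases beyond the 3′ end of MIR4458HG:3. hsa-miR-100-5p and hsa-let-7a-5p lay 3309 and 9016 bases beyond the 3′ end of NONHSAT160839.1 at MIR100HG. hsa-miR-4458 and hsa-let-7a-5p share the seed GAGGUAG. Both arms of miR-22 lay inside MIR22HG:2. The 2 host transcripts with the most IgG reads thus did not, as deposited, reach the microRNA they are named for, while the one with 2 reads did.

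Short lists of lncRNAs known from breast cancer and of nuclear retained lncRNAs added no transcript to those named. Neither list is complete, so the set may hold other lncRNAs of these kinds. The breast cancer list held HOTAIR, CYTOR, PVT1, LINC01638, UCA1, H19, TUG1, NORAD, BCAR4, PICSAR, LINC00511 and LINP1. The nuclear retained list held MALAT1, NEAT1, KCNQ1OT1 and MEG3. Of the first, 4 transcripts were listed, 1 with reads in both precipitates and 3 in Input only, and of the second none was listed.

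The coding scores say how much a transcript looks like a messenger RNA. CPAT gives a probability between 0 and 1, and CPC and CNCI give scores that are negative for sequences called non-coding. All 334 listed transcripts had CPC and CNCI scores below 0 and a CPAT probability of at most 0.360, so the set could only fall within these ranges. The median CPAT probability was 0.0250 for the 73 transcripts (1.14e-07 to 0.339), 0.0437 for the 24 named ones with reads in both precipitates and 0.0304 for the 88 with reads in Input only. The median CPC score was -1.01 (-1.49 to -0.0169), against -0.960 and -1.04, and the median CNCI score was -0.0410 (-0.479 to -0.00041), against -0.0614 and -0.0473. These medians are close to each other beside the range within the set.

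The 3 highest coding probabilities belonged to NONHSAT116016.2 at LINC00473 (0.339), NONHSAT134987.2 at ZDHHC12-DT (0.315) and NONHSAT055061.2 at HEATR6-DT (0.303), all at lncRNA genes. The first also overlaps the protein-coding gene PDE10A on the same strand. The 9 transcripts over a protein-coding gene on the same strand, with no lncRNA gene matched, had a median of 0.00953. Their highest value was 0.211, at RTL8A, and LINC00998:1 at SMIM30 had 0.0777. The highest value of the set thus lay where RefSeq lists a protein-coding gene as well as an lncRNA gene. Because no listed transcript exceeds 0.360, whether the probability separates positions of protein-coding genes cannot be judged here. The 18 transcripts at 0 in Input had a median of 0.0147 and the 55 with Input reads 0.0302.

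The span on the genome had a median of 3510 bases, against 4485 for those with reads in both precipitates and 2838 for those with reads in Input only. The median Input level was 2.78 FPKM, against 4.53 and 2.51 FPKM. The set lay between the other 2 groups in both measures, with no test made. For Input this order is shaped by the lower edge of the list and is not read as a result. Transcripts with reads in Input only had to pass that edge in Input (lowest 1.64 FPKM), while 18 of the set were at 0 there and passed it in IgG.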

How the data were processed

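RNA precipitated by Flag-tagged FAK, by normal mouse IgG and 10% of the Input RNA of MDA-MB-231 cells was sequenced, 1 library each, and grouped by the labels. The authors deposited FPKM values and whole-number read counts of 334 lncRNA transcripts over 7007 lines, 1 per predicted target gene; repeated lines were used once. Further deposited columns are coding potential scores (CPC, CNCI) and a coding probability as a fraction (CPAT), computed by the authors. StringTie and GRCh38 are named in the submitters' processing notes; aligner and counting tool are not given in the sources used here. The depth of the whole libraries is unknown, since only lncRNA reads are listed.

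The members and lists were chosen with earlier results of these data known. The main measure was log2 of (IgG + 0.1) over (Input + 0.1) in FPKM. Intervals are exact 95% Clopper-Pearson intervals of read ratios, scaled by the ratio of FPKM per read between the 2 libraries, the transcript's own with at least 5 reads in both and otherwise the median. In 1 alternative, Input zeros were set to 3 reads. No test was made between single libraries.

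Counts may be rounded estimates. Reads recomputed from FPKM were 0.912 times the deposited IgG count (median, 0.182 to 1.03) for 15 transcripts with 1 or 2 reads and 0.990 times (0.830 to 1.08) for 27 with at least 5. Genes were named by position, on the same strand where known, from RefSeq (GRCh38.p14).

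Transcripts named are the 15 with the most IgG reads, the 5 highest in Input, the 4 highest and 4 lowest IgG to Input ratios with at least 5 reads, those just inside and outside the rule, the 3 highest coding probabilities and those on the gene lists. Alternatives were other scalings, pseudocounts, confidence levels, minimum reads and sums over loci. The functions were tested on simulated data. Values were computed with pandas 2.3.3, numpy 2.4.6 and scipy 1.17.1 and drawn with matplotlib 3.10.9 under Python 3.11.15.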

Additional observations from a re-analysis of the deposited data

How the results depend on the processing

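No paired analysis was possible because there is 1 library for each of the 3 conditions, which also leaves no replicate to leave out. The 36 transcripts whose Flag-FAK interval lay below IgG became 16 on the TPM scale and 12 with totals that leave out ribosomal DNA and 7SK. They numbered 36 with unscaled reads, with reads estimated from FPKM and with at least 5 IgG reads, 26 at the 99% level, 37 as sums over loci and, chosen after seeing the data, 31 among the 63 transcripts alone at their locus.

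The median log2 IgG to Input ratio, -0.90, turned positive on the TPM scale (1.68), with totals that leave out ribosomal DNA and 7SK (0.82) and with at least 5 IgG reads (0.82, 48 transcripts). A minimum of IgG reads keeps transcripts high in IgG by its construction. It was -0.93 with a pseudocount of 0.01, -0.69 with 1, -0.93 with Input zeros at their bound and -1.45 among transcripts with Input reads, the last chosen after seeing the data. Transcripts above 2-fold went from 24 to 47 (TPM), and those below 0.5-fold from 35 to 5 (TPM) and 18 (totals without ribosomal DNA and 7SK). The 5 transcripts with Flag-FAK reads elsewhere at their locus were 5 also when only overlaps on the same strand counted. Depth limits these values: 25 transcripts had fewer than 5 IgG reads.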
